A study of Homo sapiens with 8 samples.

Results

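The 10 circadian clock genes BMAL1, BMAL2, CLOCK, NPAS2, PER1, PER2, PER3, CRY1, CRY2 and NR1D1 were followed through the M1, M2, M3 and M4 cell lines. They were chosen by name, with earlier results on these data already known and no single contrast given as the criterion, so their levels and tests are a description and support nothing by themselves. They are 10 of the 56632 gene rows of the count table, 29446 of which held a count in any library, and all 10 passed the filter on low counts. BMAL1 and BMAL2 appear in older annotation as ARNTL and ARNTL2.

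Poly A+ RNA was sequenced from 8 libraries, 2 per line, which the labels call biological duplicates. M1 is MCF10A, a non-tumorigenic human mammary epithelial line. M2 (MCF10AT1k.cl2) was made from it by transfection of activated T24-HRAS and passage through a xenograft. M3 (MCF10Ca1h) and M4 (MCF10CA1a.cl1) were taken from carcinomas that M2-type cells formed in mice, with M3 forming well-differentiated carcinomas and M4 forming undifferentiated ones that can colonise the lung. Each line is thus 1 lineage, and M2, M3 and M4 share the HRAS transgene. All were grown as acini in Matrigel for 8 days with 2% horse serum, hydrocortisone, cholera toxin and insulin. M1 and M2 also received EGF at 10 ng/ml, and M3 and M4 did not, so a difference of M3 or M4 from M1 or M2 is also a difference of medium and the causes cannot be told apart. The medium was renewed every 4 days, but the hour of harvest and the hours since the last renewal are not given in the sources used here. Each library is a single time point, so a change in the level of a rhythmic gene and a change in its phase cannot be told apart. Fewer expressing cells and less RNA per cell cannot be told apart either in bulk RNA. The p-values measure only the spread between these cultures.

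Library totals ran from 69669970 to 107350344 counts. In the study's own expression table the columns for M1 replicate 2 and M2 replicate 1 are the other way round. Over 117 genes, the column it names M2 replicate 1 correlated best with the library that the sample labels call M1 replicate 2 (r = 0.987), and the reverse held for the partner column (r = 0.987), while the other 6 columns followed their own labels with r from 0.971 to 0.984. The sample labels were followed here, and these 2 are called the doubtful libraries. Spearman's rho between the 2 libraries of a line was 0.9749 for M1, 0.9934 for M2, 0.9824 for M3 and 0.9865 for M4. With the doubtful libraries exchanged it would be 0.9675 for M1 and 0.9711 for M2. Calls against M1 that end with those libraries exchanged, or with both left out, are given with their values under each. The epithelial markers KRT5, KRT17, TP63, CDH1 and EPCAM were at 36.2 CPM (counts scaled to library size) or more in every library, KRT14 lay between 2.30 and 99.7 CPM, PTPRC was at most 0.0366 CPM, and CD3E and COL1A2 had no count. VWF and CDH5 were at most 0.229 CPM, and PDGFRA and PDGFRB at most 0.732. CD68, a macrophage marker that other cells also express, ran from 4.02 to 51.3 CPM with both M4 libraries highest, COL1A1 from 6.07 to 25.5, and DCN from 0.0128 to 60.2 with both M4 libraries lowest. Their part in the results was not tested.

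The circadian clock is a feedback loop of transcription that runs with a period of about a day in nearly all cells, epithelial cells of the breast among them. BMAL1 or its paralog BMAL2 pairs with CLOCK or its paralog NPAS2, and the dimer binds E-boxes with the sequence CACGTG to switch on the PER and CRY genes, whose proteins return to the nucleus and inhibit it. The same dimer drives the nuclear receptors NR1D1 and NR1D2, which repress BMAL1 through ROR elements, as well as the output factors DBP, TEF and HLF, which act through D-boxes. PER1 is in addition an early target of glucocorticoids and of cAMP signalling in many cell types.

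These sequence elements can be read in the promoters of the genes that the results below turn on. RefSeq windows from 250 bases before to 50 bases after the start (GRCh38.p14) were found for 10 of 10 clock genes and for 10 of 10 second-loop and output genes. They were searched on both strands for CACGTG (the E-box, which reads the same on both strands), CACGTT (an E-box variant), AGGTCA (the core of the ROR element), TTATGTAA (the D-box) and TGACGTCA (the cAMP response element, CRE). Among all 35116 windows, 7.26% held the E-box, 5.34% CACGTT, 13.8% AGGTCA, 0.886% the D-box and 1.85% the CRE. Some genes have 2 windows and were counted if either held the letters. The counts of genes below and these shares per window are therefore unlike units. Of the 10 clock genes, 1 (PER1) held the E-box, 5 (CLOCK, PER2, CRY1, CRY2 and NR1D1) held CACGTT, 3 (BMAL1, PER1 and CRY2) held AGGTCA and 1 (PER3) held the D-box. No window of BMAL2 or NPAS2 held any of these letters, which says nothing of the factors outside it. Of the second-loop and output genes, 5 (NR1D2, TEF, CIART, BHLHE40 and BHLHE41) held the E-box, NFIL3 held AGGTCA, NR1D2 the D-box and HLF the CRE. The windows of DBP, RORA and RORB held none of these letters. The stretches below are upstream of the start, 5′ to 3′ on the strand of the gene, with the E-box in capitals in the first 4 and the D-box in capitals in that of PER3. They are shown because PER1 is the clock gene with the highest level per kilobase of exon in 3 of the 4 lines, PER3 rose in M3 and M4, CIART and TEF fell in M4, and BHLHE41 rose in M3. These genes were thus picked by their values, and a link between an element and a change was not tested. Of the other genes with an E-box, BHLHE40 rose in M4 and NR1D2 was not called, while DBP, without one, fell in M4. In the PER1 stretch, AGGTCA also lies on the opposite strand, in lower case.
PER1, chr17:8152505-8152604, minus strand, bases 200 to 101 before the start: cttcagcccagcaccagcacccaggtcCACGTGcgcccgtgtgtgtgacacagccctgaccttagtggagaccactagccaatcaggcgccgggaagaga
CIART, chr1:150282414-150282513, plus strand, bases 140 to 41 before the start: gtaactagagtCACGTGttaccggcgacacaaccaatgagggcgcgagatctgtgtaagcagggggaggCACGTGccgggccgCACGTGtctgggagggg
TEF, chr22:41367245-41367344, plus strand, bases 210 to 111 before the start: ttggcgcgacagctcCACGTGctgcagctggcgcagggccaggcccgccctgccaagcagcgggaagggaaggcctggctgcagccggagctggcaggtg
BHLHE41, chr12:26125038-26125137, minus strand, bases 100 to 1 before the start: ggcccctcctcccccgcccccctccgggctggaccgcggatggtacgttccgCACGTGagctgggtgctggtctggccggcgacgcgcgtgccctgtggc
PER3, chr1:7784081-7784180, plus strand, bases 210 to 111 before the start: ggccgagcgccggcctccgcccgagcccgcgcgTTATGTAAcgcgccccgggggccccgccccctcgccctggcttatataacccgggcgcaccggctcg

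A gene was called when edgeR's quasi-likelihood test gave an adjusted p under 0.05, over all 18432 genes tested, together with a change of more than 2-fold. BMAL2, NPAS2 and PER3 were higher in both carcinoma lines than in M1, and PER2 was lower in M4. Against M1, 1 of the 10 clock genes was called in M2 (BMAL2, higher), beside 3.37% of all genes tested. In M3 against M1, 3 were called (BMAL2, NPAS2 and PER3, all higher), beside 13.5% of all genes. In M4 against M1, 4 were called (BMAL2, NPAS2 and PER3 higher, PER2 lower), beside 20.7% of all genes. M3 against M2 called 2 (NPAS2 and PER3, higher), beside 4.15% of all genes. M4 against M2 called 5 (BMAL2, NPAS2 and PER3 higher, BMAL1 and PER1 lower), beside 13.9% of all genes. M4 against M3, both grown without EGF, called 3 (BMAL2 higher, NPAS2 and PER2 lower), beside 10.3% of all genes. CLOCK, CRY1, CRY2 and NR1D1 were called in none of the 6 comparisons as labelled. The median log2 fold change of the 10 genes was 0.07 in M2, 0.21 in M3 and 0.36 in M4 against M1, beside −0.04, −0.02 and −0.02 over all genes tested. The comparisons with M1 share the M1 libraries, so their values stand side by side and are not separate evidence.

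**Figure D1:**
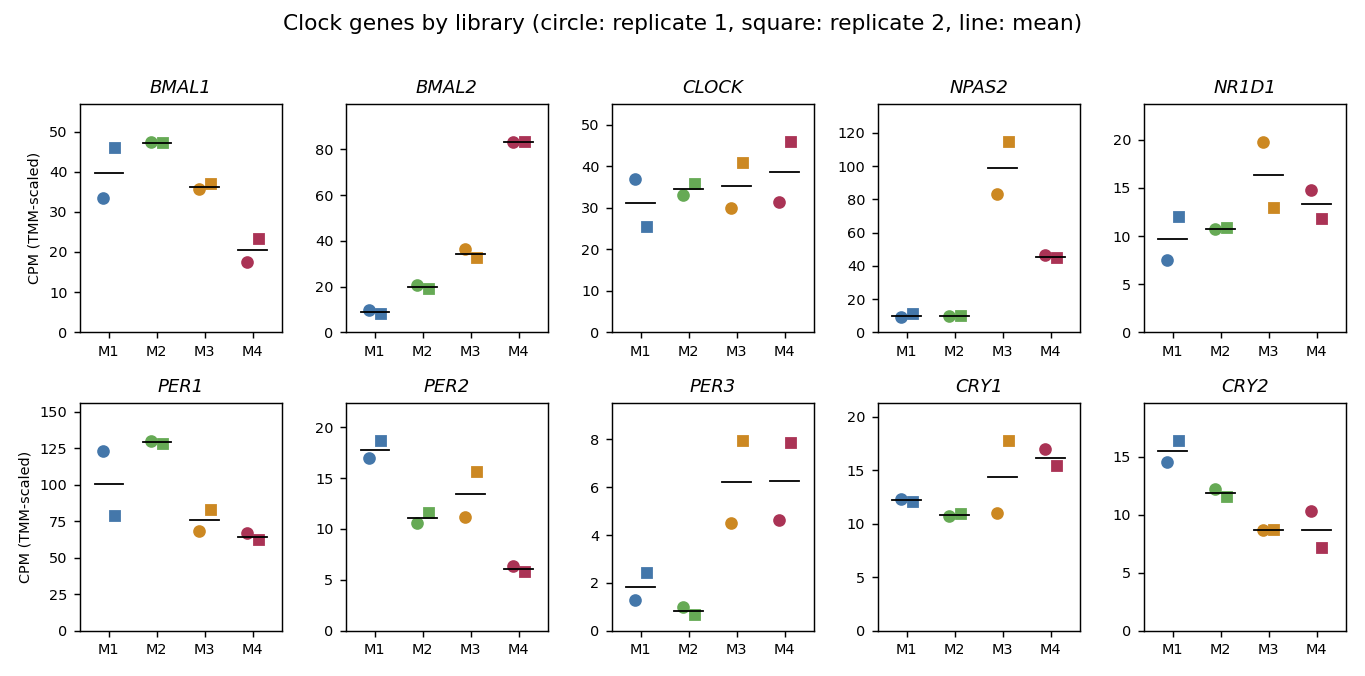
Level of each clock gene in every library, in CPM after TMM scaling (vertical axis, from 0), with circles for replicate 1, squares for replicate 2 and a line at the mean of the 2 libraries of a line. BMAL2 rose from M1 to M4 with no overlap between lines, NPAS2 was near 10 CPM in M1 and M2 and between 44.6 and 114.5 CPM in M3 and M4, and CLOCK overlapped across all 4 lines.

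The activator BMAL2 changed most in M4. BMAL2 (ENSG00000029153, GRCh37 chr12:27485769-27578222, plus strand) stood at 9.74 and 7.99 CPM in the M1 libraries, 20.7 and 19.05 in those of M2, 36.4 and 32.4 in those of M3, and 83.1 and 83.3 in those of M4. The lines did not overlap, and each line was above the one before it. The means were 8.86 ± 1.24 (SD, n = 2) for M1, 19.9 ± 1.17 for M2, 34.4 ± 2.88 for M3 and 83.2 ± 0.0890 for M4. Against M1 the log2 fold change was 1.16 (SE 0.153, adjusted p = 0.00891) in M2, 1.96 (SE 0.156, adjusted p = 0.000547) in M3 and 3.23 (SE 0.163, adjusted p = 9.55e-05) in M4, the last a 9.39-fold difference. Between neighbours, M3 exceeded M2 by 0.79 on the log2 scale (adjusted p = 0.0265), under the 2-fold limit, and M4 exceeded M3 by 1.27 (adjusted p = 0.00344). With the doubtful libraries exchanged, BMAL2 was not called in M2 (−0.17), in M3 (1.18) or in M4 against M3 (1.27), while M4 against M1 was still called at 2.45. With both left out, M2 against M1 was 0.97 and not called, M3 was called at 1.83 and M4 at 3.09. The M2 call also ended without M2 replicate 1 (1.11) and without M2 replicate 2 (1.23).

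BMAL1 (ENSG00000133794, chr11:13298199-13408813, plus strand), the principal partner in the activating dimer, was lowest in M4. It stood at 33.5 and 45.8 CPM in the M1 libraries, 47.4 and 47.0 in those of M2, 35.6 and 36.98 in those of M3, and 17.6 and 23.2 in those of M4. Both M4 libraries were below the other 6, and M1 overlapped M3. The order of the means was M2 (47.2 ± 0.262, SD, n = 2), M1 (39.7 ± 8.72), M3 (36.3 ± 0.964) and M4 (20.4 ± 3.93), and M2 from M1 (adjusted p = 0.477) and M1 from M3 (adjusted p = 0.675) did not pass the test. From M2 to M4 it fell by 1.21 on the log2 scale (SE 0.197, adjusted p = 0.00557), a difference called in all 17 refits under other settings. Against M1 the change in M4 was −0.96 (SE 0.196, adjusted p = 0.00916) and against M3 −0.83 (adjusted p = 0.0274), both under 2-fold. The M4 against M1 difference passed 2-fold without M1 replicate 1 (−1.15) and without M4 replicate 2 (−1.15). It was smaller without M1 replicate 2 (−0.72), without M4 replicate 1 (−0.77) and with the doubtful libraries left out (−0.72). Not every refit kept its pass on p.

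Per kilobase of exon, BMAL2 made up 18.5% ± 5.40 (SD, n = 2) of the 2 BMAL transcripts together for M1, 29.4% ± 1.11 for M2, 48.4% ± 2.76 for M3 and 80.2% ± 3.05 for M4. The shares did not overlap between lines as labelled, but with the doubtful libraries exchanged M1 would hold 22.4% and 30.2% and M2 14.7% and 28.6%, which overlap. In M4 the 2 libraries held 82.4% and 78.1%, and in M1 they held 22.4% and 14.7%. Dividing by the length of the longest transcript in place of all exons gave 11.4%, 19.1%, 34.6% and 69.7%, so the size of the share depends on the length used while its order does not. An exact permutation test of 2 against 2 libraries cannot go below p = 0.333, so no test was made on shares.

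NPAS2, the CLOCK paralog, was high in the carcinoma lines. NPAS2 (ENSG00000170485, chr2:101436601-101613291, plus strand) stood at 8.97 and 10.9 CPM in the M1 libraries, 9.74 and 10.1 in those of M2, 83.1 and 114.5 in those of M3, and 46.5 and 44.6 in those of M4. M1 and M2 overlapped, and all M3 and M4 libraries were above them. M3 (98.8 ± 22.2, SD, n = 2) was the highest, M4 followed (45.5 ± 1.35), and M1 (9.94 ± 1.38) and M2 (9.91 ± 0.238) did not pass the test against each other (adjusted p = 0.993). M3 was 9.94-fold above M1, a log2 fold change of 3.31 (SE 0.199, adjusted p = 0.000254), and M4 was 4.58-fold above M1, a log2 fold change of 2.20 (SE 0.191, adjusted p = 0.000349). Against M2 the values were 3.32 for M3 (adjusted p = 0.000597) and 2.20 for M4 (adjusted p = 0.00063). All 4 calls held in all 17 refits, where NPAS2 in M3 against M1 ranged from 3.07 to 3.53 and in M4 against M1 from 2.08 to 2.34, the exchange and the removal of the doubtful libraries included. From M3 to M4 NPAS2 fell by 1.12 on the log2 scale (SE 0.184, adjusted p = 0.00919), a call that ended without M3 replicate 2 (−0.87), without M4 replicate 1 (−1.14) and without M4 replicate 2 (−1.07). A lncRNA on the opposite strand, ENSG00000223947, shares 748 exonic bases with NPAS2 and had 9 to 82 counts per library, and NPAS2-AS1 had at most 3, beside 709 to 9971 for NPAS2. Whether the counting used strand is not given in the sources used here.

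CLOCK itself (ENSG00000134852, chr4:56294070-56413076, minus strand) stood at 36.8 and 25.4 CPM in the M1 libraries, 33.1 and 35.7 in those of M2, 30.0 and 40.6 in those of M3, and 31.5 and 45.8 in those of M4. All 4 lines overlapped. The means ran from 31.1 ± 8.10 (SD, n = 2) in M1 to 38.7 ± 10.1 in M4, and the widest difference, M4 against M1, was 0.31 on the log2 scale (SE 0.255, adjusted p = 0.385). CLOCK overlaps TMEM165 on the opposite strand over 76 exonic bases, and TMEM165 had 4958 to 8723 counts. Per kilobase, NPAS2 made up 23.4% ± 7.13 (SD, n = 2) of the CLOCK and NPAS2 total for M1, 21.0% ± 0.481 for M2, 72.1% ± 0.213 for M3 and 52.5% ± 7.33 for M4. In M4 the 2 libraries held 57.7% and 47.3%, on either side of an even split. With the longest transcript the shares were 30.1%, 27.4%, 78.6% and 61.0%.

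**Figure D2:**
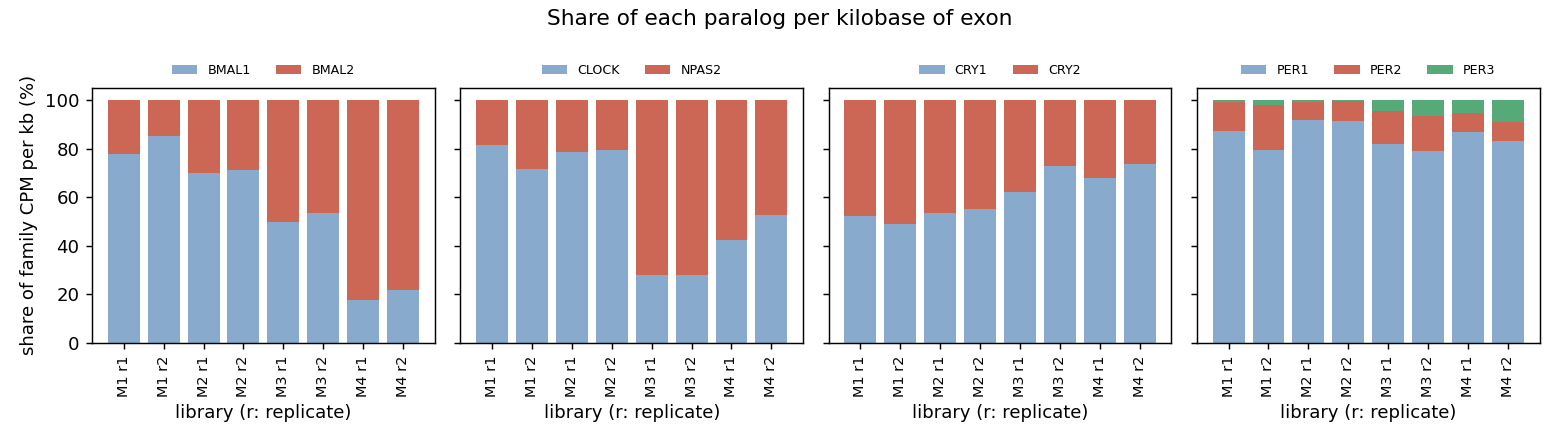
Share of each paralog in the CPM per kilobase of exon of its family, as a percent of that family (vertical axis, 0 to 100), in each of the 8 libraries (r: replicate). The BMAL2 part grew from 14.7% to 22.4% in M1 to between 78.1% and 82.4% in M4, and the NPAS2 part was largest in M3, at 71.9% and 72.2%.

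Among the repressors, PER3 was higher and PER2 lower in M4. PER3 (ENSG00000049246, chr1:7844351-7905237, plus strand) stood at 1.27 and 2.43 CPM in the M1 libraries, 1.00 and 0.654 in those of M2, 4.52 and 7.94 in those of M3, and 4.63 and 7.84 in those of M4. All M3 and M4 libraries were above all M1 and M2 libraries, M3 and M4 overlapped, and the replicates of M1, M3 and M4 lay apart. PER3 was the least abundant clock gene per kilobase of exon in every line, with 46 to 692 counts. The log2 fold change was 1.75 in M3 (SE 0.477, adjusted p = 0.0366) and 1.75 in M4 (SE 0.476, adjusted p = 0.0269) against M1, and 2.90 in M3 (adjusted p = 0.0185) and 2.90 in M4 (adjusted p = 0.00687) against M2. M2 against M1 was at −1.15 without passing the test (SE 0.480, adjusted p = 0.202), and M4 against M3 did not pass it either (SE 0.459). Several of these calls ended when a single library was left out. The lines share an estimate of the spread, so this also happened with libraries outside the comparison, where the value hardly moved. Against M1, the M4 call ended without M1 replicate 1 (1.38) or without M4 replicate 2 (1.35) and the M3 call ended in 7 of 17 refits, among them without M1 replicate 1 (1.37), M2 replicate 1 (1.76), M2 replicate 2 (1.76) or M3 replicate 2 (1.30). Against M2, the M3 call ended without M2 replicate 1 (3.25), M2 replicate 2 (2.64) or M3 replicate 2 (2.44), and the M4 call without M2 replicate 2 (2.63). With the doubtful libraries exchanged, PER3 was 2.46 above M1 in both M3 and M4 and 2.01 above M2 in both, with none of these called, and with both left out M4 was called at 2.30 against M1 and at 3.25 against M2 while M3 was at 2.30 and 3.25 and not called. The opposite-strand lncRNA ENSG00000236266 shares 482 exonic bases with PER3 and had at most 5 counts.

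PER2 (ENSG00000132326, chr2:239152685-239198743, minus strand) stood at 16.9 and 18.7 CPM in the M1 libraries, 10.6 and 11.5 in those of M2, 11.2 and 15.6 in those of M3, and 6.33 and 5.76 in those of M4. Both M4 libraries were below the other 6, both M1 libraries were above them, and M2 overlapped M3. The means fell in the order M1 (17.8 ± 1.24, SD, n = 2), M3 (13.4 ± 3.09), M2 (11.1 ± 0.662) and M4 (6.05 ± 0.403), where M1 from M3 (adjusted p = 0.198) and M3 from M2 did not pass the test. M4 was 2.94-fold below M1, a log2 fold change of −1.56 (SE 0.215, adjusted p = 0.00198), and fell by 1.15 against M3 (SE 0.213, adjusted p = 0.0131). Against M2 it was −0.87 (adjusted p = 0.0242), under 2-fold. With the doubtful libraries exchanged, M4 against M1 was −1.19 and M4 against M3 −1.15, neither of them called. With both left out these were −1.48 and −1.15 and both were called. The M4 against M3 call also ended without M3 replicate 2 (−0.89), M4 replicate 1 (−1.21) or M4 replicate 2 (−1.06). A lncRNA that overlaps PER2 on the opposite strand, ENSG00000225057, had at most 6 counts.

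PER1 (ENSG00000179094, chr17:8043790-8059824, minus strand) stood at 123.0 and 78.4 CPM in the M1 libraries, 130.3 and 128.3 in those of M2, 68.7 and 83.0 in those of M3, and 67.1 and 62.1 in those of M4. M4 was below every other library, and M1, whose replicates lay far apart, overlapped M3. The means ran from M2 (129.3 ± 1.42, SD, n = 2) through M1 (100.7 ± 31.5) and M3 (75.8 ± 10.1) to M4 (64.6 ± 3.52), and no neighbours in that order passed the test (adjusted p = 0.354, 0.206 and 0.484). The PER1 call in M4 against M2 sat at the limit of 2-fold (−1.001, SE 0.215, adjusted p = 0.0157) and ended in 12 of 17 refits, where it ranged from −1.05 to −0.68. It ended without M1 replicate 1 (−0.98), M2 replicate 1 (−0.99), M2 replicate 2 (−1.02), M4 replicate 1 (−1.05) or M4 replicate 2 (−0.92), with the doubtful libraries exchanged (−0.68) and with them left out (−0.99). Against M1, M4 was at −0.64 (SE 0.214, adjusted p = 0.0542). ENSG00000263620, annotated on the same strand, shares 30 exonic bases with PER1 and had 41 to 254 counts beside 4847 to 13269 for PER1. Per kilobase, PER1 held 83.3%, 91.7%, 80.5% and 85.0% of the 3 PER transcripts in M1, M2, M3 and M4, PER2 held 15.3%, 7.76%, 13.9% and 7.87%, and PER3 held 1.44%, 0.505%, 5.58% and 7.11%.

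CRY1 (ENSG00000008405, chr12:107385142-107487327, minus strand) and CRY2 (ENSG00000121671, chr11:45868669-45904799, plus strand), the other repressors of the loop, were called in no comparison. CRY1 stood at 12.3 and 12.1 CPM in the M1 libraries, 10.8 and 10.9 in those of M2, 11.0 and 17.8 in those of M3, and 17.0 and 15.4 in those of M4. Both M4 libraries were above M1 and M2, and M3 spanned M1 and M4. The widest CRY1 difference, M4 against M2, was 0.58 on the log2 scale (SE 0.238, adjusted p = 0.117). CRY2 stood at 14.5 and 16.4 CPM in the M1 libraries, 12.2 and 11.6 in those of M2, 8.71 and 8.69 in those of M3, and 10.4 and 7.11 in those of M4. Both M1 libraries were above all the others, and M3 lay within the range of M4. CRY2 was at −0.83 on the log2 scale against M1 in M3 (SE 0.223, adjusted p = 0.0349) and at −0.82 in M4 (SE 0.222, adjusted p = 0.0262), so it passed the test on p but not on size, and only without M4 replicate 1 did M4 pass 2-fold (−1.11). With the doubtful libraries exchanged CRY2 was at −0.62 in M3 and −0.61 in M4, and with both left out at −0.74 in each. Not every refit kept the pass of CRY2 on p, in M3 or in M4. CRY2 held 49.4% ± 2.51 (SD, n = 2) of the CRY total per kilobase for M1, 45.8% ± 1.21 for M2, 32.6% ± 7.47 for M3 and 29.1% ± 4.03 for M4, and M3 and M4 overlapped.

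NR1D1 (ENSG00000126368, chr17:38249046-38256842, minus strand), the nuclear receptor that represses BMAL1, stood at 7.50 and 11.9 CPM in the M1 libraries, 10.7 and 10.8 in those of M2, 19.8 and 12.9 in those of M3, and 14.8 and 11.8 in those of M4. M1 and M4 overlapped narrowly, and both M3 libraries were above both M2 libraries. The order of means was M1 (9.72 ± 3.14, SD, n = 2), M2 (10.8 ± 0.0593), M4 (13.3 ± 2.14) and M3 (16.3 ± 4.85), and the widest difference, M3 against M1, was 0.75 on the log2 scale (SE 0.293, adjusted p = 0.106). NR1D1 overlaps THRA, on the opposite strand, over 473 exonic bases, and THRA had 3581 and 3523 counts in the M1 libraries and 674 and 702 in those of M4. Without known strand use, reads over these bases cannot be given to either gene.

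**Figure D3:**
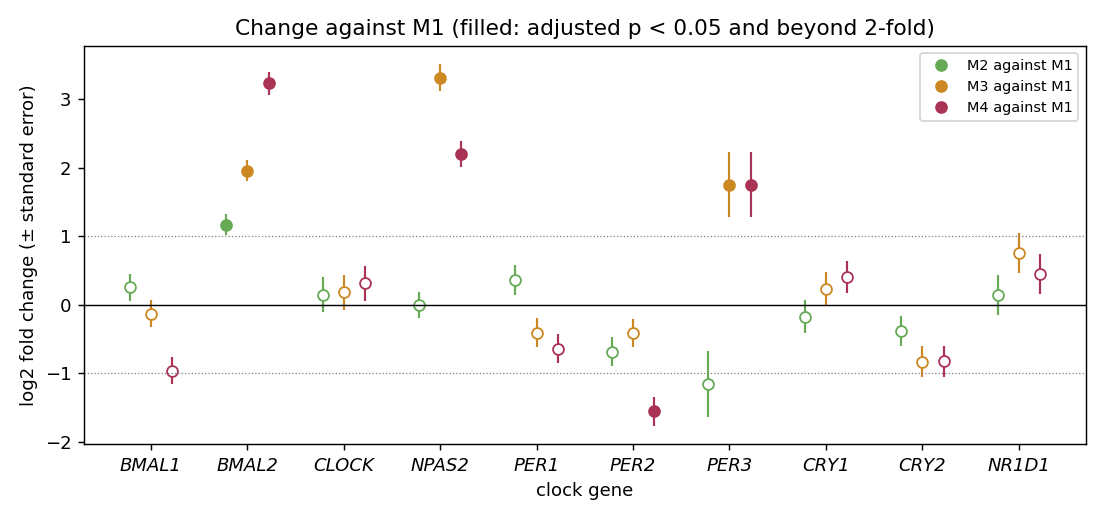
Log2 fold change of each clock gene against M1 (vertical axis) with its standard error, for M2, M3 and M4, filled where the change passed the test and 2-fold. BMAL2 lies at 1.16, 1.96 and 3.23, NPAS2 at 3.31 in M3 and 2.20 in M4, and CLOCK stays within 0.31 of 0.

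Levels of different genes were compared only per kilobase of exon. In CPM per kilobase of exon, PER1 was the highest clock gene in M1 (14.4), M2 (18.5) and M3 (10.8), and BMAL2 was the highest in M4 (11.9, with PER1 at 9.22). That order in M4 depends on the length used. The exons of BMAL2 and PER1 span 7001 and 7002 bases, but their longest transcripts have 6902 and 4676. Divided by the longest transcript, PER1 was above BMAL2 in M4 too. NPAS2 rose from 0.795 in M1 to 7.90 in M3, where it stood next below PER1, and PER3 was the lowest throughout, from 0.102 in M2 to 0.767 in M4. With the longest transcript, PER2 was below PER3 in the M4 mean (5.84% and 6.27% of the PER total).

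The second loop and the output factors were described from a list of 10 genes. Of these, 6 were called in M4 against M1 (5 lower and 1 higher), 2 in M3 (1 in each direction) and 1 in M2 (higher), beside 20.7%, 13.5% and 3.37% of all genes tested, and the medians of the list were −1.35 in M4, 0.06 in M3 and −0.27 in M2 on the log2 scale. In M4 against M3, without a difference in EGF, 5 were called and all 5 were lower, beside 10.3% of all genes. DBP, a D-box activator and a direct output of the loop, stood at 9.17 and 18.7 CPM in the M1 libraries, 9.04 and 8.29 in those of M2, 5.95 and 4.78 in those of M3, and 0.493 and 0.589 in those of M4. It changed by −4.69 on the log2 scale in M4 against M1 (SE 0.406, adjusted p = 0.000343) and by −3.31 against M3 (adjusted p = 0.00325), and was called in M4 against M1 in all 17 refits, at −4.08 without M1 replicate 2. In M3 DBP was at −1.38 against M1 (adjusted p = 0.0286), a call lost in 8 of 17 refits, among them those without M1 replicate 2 (−0.77), M2 replicate 1 (−1.37), M2 replicate 2 (−1.38), M3 replicate 1 (−1.54) or M3 replicate 2 (−1.22), with the doubtful libraries exchanged (−0.76) and with both left out (−0.77). TEF, of the same family, stood at 18.9 and 27.4 CPM in the M1 libraries, 20.3 and 21.6 in those of M2, 21.6 and 14.5 in those of M3, and 4.08 and 2.37 in those of M4, and changed by −2.84 in M4 against M1 (SE 0.336, adjusted p = 0.00107) and by −2.48 against M3 (adjusted p = 0.0049). HLF, the third member, had 2 and 18 counts in M4 beside 151 and 191 in M1, 97 and 66 in M2, and 81 and 156 in M3 (log2 fold change −4.13 against M1, SE 0.896, adjusted p = 0.0117). All 3 D-box activators were thus lowest in both M4 libraries. For HLF the call ended with the doubtful libraries exchanged (−3.53) or left out (−3.94), and the value moved to −3.15 without M4 replicate 1 and to −6.75 without M4 replicate 2, both still called.

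CIART, which represses the BMAL1 and CLOCK dimer, stood at 2.31 and 4.32 CPM in the M1 libraries, 6.17 and 4.63 in those of M2, 9.27 and 6.62 in those of M3, and 0.546 and 0.858 in those of M4. Both M4 libraries were below the other 6, and both M3 libraries were above them. CIART changed by −2.24 in M4 against M1 (SE 0.422, adjusted p = 0.00669) and by −3.50 against M3 (SE 0.440, adjusted p = 0.00396), and the M4 against M1 call ended with the doubtful libraries left out (−1.72). BHLHE40, an E-box repressor, stood at 58.5 and 97.3 CPM in the M1 libraries against 274.9 and 217.1 in those of M4 (1.66, SE 0.350, adjusted p = 0.0109), a call that ended without M4 replicate 1 (1.49). Its relative BHLHE41 was high in M3, at 29.7 and 20.6 CPM beside 9.11 and 5.52 in M1 (1.78, SE 0.343, adjusted p = 0.0109) and 6.71 and 10.2 in M4, and the M3 call ended with the doubtful libraries exchanged (2.04) or left out (1.47). NFIL3, which competes with the D-box activators, was the gene called in M2 (21.7 and 45.9 CPM in M1, 85.6 and 87.2 in M2, log2 fold change 1.35, adjusted p = 0.0487). That call was lost in 11 of 17 refits, among them those that left out any single library other than M1 replicate 2, where the NFIL3 change ran from 0.91 without M1 replicate 1 to 1.37 without M2 replicate 1. It was lost with the doubtful libraries exchanged (0.31) or left out (2.01) too, and without M1 replicate 2 the change was 2.00. RORB had no count in M4 and 1 and 33 counts in M1, so it was at least 6.39-fold lower on a floor of 3 counts per library. That bound rests on M1 replicate 2, a doubtful library, because M1 replicate 1 lies under the floor, and the call was lost in 9 of 15 refits, among them those that left out any single library other than M1 replicate 1. With RORB at that bound the median of the list in M4 was still −1.35. NR1D2, the paralog of NR1D1, lay between 11.6 and 18.8 CPM in all libraries and was not called against M1 (−0.46 in M4, SE 0.179, adjusted p = 0.0888). RORA, an activator that opposes NR1D1, was not called against M1 either.

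**Figure D4:**
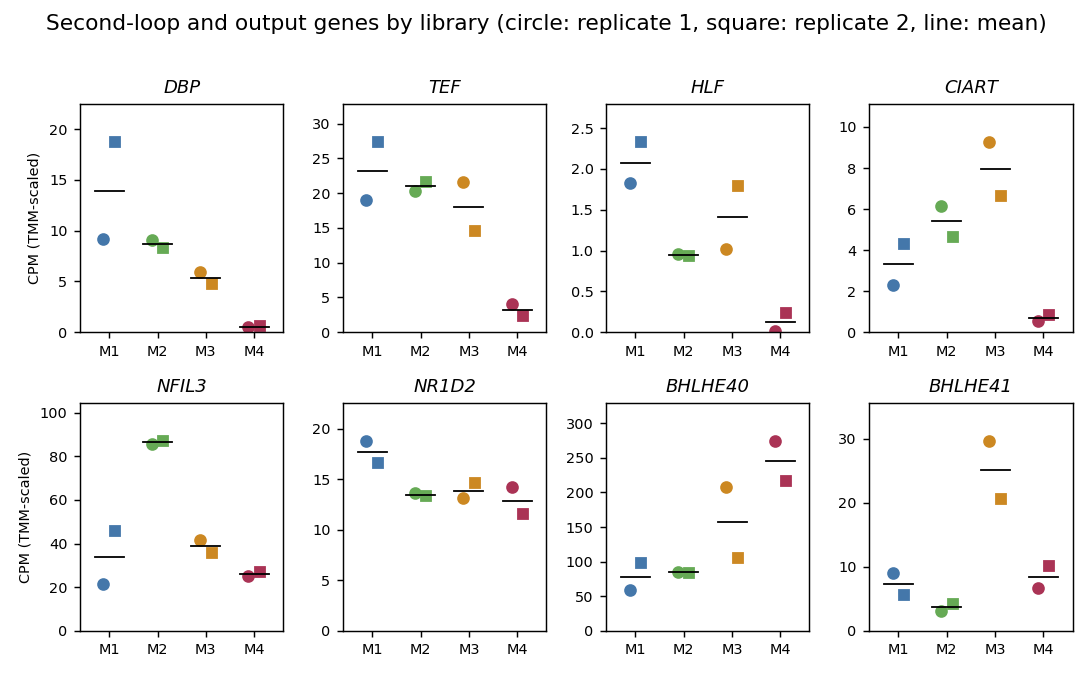
Level of 8 second-loop and output genes in every library, in CPM after TMM scaling (vertical axis, from 0), with circles for replicate 1, squares for replicate 2 and a line at the mean. DBP, TEF, HLF and CIART are lowest in both M4 libraries, while BHLHE40 is highest there and BHLHE41 is highest in M3.

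Of 18 kinases, ligases and cofactors that set the stability or activity of clock proteins, 17 were tested and FBXL21P had no count. In M4 against M1, 3 were called, GSK3B higher and CIPC and USP2 lower, a share near the 20.7% of all genes tested, and the median of the list was 0.09 on the log2 scale. GSK3B, a kinase of several clock proteins, stood at 53.7 and 48.1 CPM in the M1 libraries, 60.9 and 61.6 in those of M2, 78.2 and 106.7 in those of M3, and 141.6 and 166.5 in those of M4 (1.60 in M4 against M1, SE 0.180, adjusted p = 0.000881), with no overlap between lines, and was called in all 17 refits. CIPC, an inhibitor that binds CLOCK, stood at 40.3 and 33.3 CPM in the M1 libraries, 29.0 and 25.6 in those of M2, 15.2 and 18.6 in those of M3, and 17.0 and 18.1 in those of M4. It was called in M3 (−1.12, SE 0.173, adjusted p = 0.00473) and in M4 (−1.07, SE 0.173, adjusted p = 0.00366), and both calls fell under 2-fold without M1 replicate 1 (−0.97 and −0.91). The M3 call did so without M3 replicate 1 too (−0.98), and the exchange of the doubtful libraries ended both (−1.03 in M3 and −0.98 in M4). USP2, a deubiquitinase, changed by −1.33 (adjusted p = 0.0491), a call lost in 12 of 17 refits, among them those that left out any single library of M1, M2 or M4, from −1.71 without M4 replicate 1 to −1.01 without M4 replicate 2, and with the doubtful libraries exchanged (−0.86) or left out (−1.43). In M2 none of the 17 was called by edgeR, and DESeq2 called 1. In M2 against M1, 3 of the 17 had an unadjusted p under 0.05, beside 4304 of all 18432 genes tested. CSNK1D, CSNK1E and CSNK1A1, the casein kinases that phosphorylate PER proteins, were called in no comparison with M1. CSNK1E passed the test on p but not on size in M3 (0.61, adjusted p = 0.04) and in M4 (0.59, adjusted p = 0.0346).

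The medium held hydrocortisone and cholera toxin, which raises cAMP, so genes known to respond to glucocorticoids and to cAMP are given beside the clock genes, PER1 in particular. Of 6 glucocorticoid-induced genes, 5 were called lower in M4 against M1, with a median of −2.23 on the log2 scale, and 2 were called lower in M3, beside 20.7% and 13.5% of all genes tested. FKBP5 stood at 915.5 and 453.0 CPM in the M1 libraries and 129.0 and 185.6 in M4 (−2.12, SE 0.346, adjusted p = 0.0038, and −1.51 without M1 replicate 1), and SGK1 at 85.8 and 90.9 in M1 and 27.5 and 14.9 in M4 (−2.06, SE 0.272, adjusted p = 0.00166). ZBTB16 had 2879 and 1305 counts in M1, 119 and 13 in M3, and 7 and 1 in M4, and its M3 call ended with the doubtful libraries exchanged (−4.84) or left out (−5.40). KLF9 changed by −1.49 in M3 (adjusted p = 0.0181) and −2.34 in M4 (adjusted p = 0.00237), and TSC22D3 by −3.77 in M4 (adjusted p = 0.0155), the latter call ending without M4 replicate 1 (−4.11) or M4 replicate 2 (−3.47) and the value moving to −2.49 without M1 replicate 1 and to −4.43 without M1 replicate 2. The KLF9 call in M3 ended without M1 replicate 1 (−1.05) or M3 replicate 2 (−1.14) and with the doubtful libraries exchanged (−1.38). The M1 libraries differed widely in several of these genes, with DUSP1 at 200.3 and 38.2 CPM and TSC22D3 at 196.5 and 52.0. PER1 differed in the same direction in M1 (123.0 and 78.4 CPM), and SGK1 did not (85.8 and 90.9). In M3, TSC22D3 (164.7 and 35.9 CPM) and DUSP1 (65.4 and 33.2) were again higher in replicate 1. PER1 was lower there (68.7 and 83.0). A link between these differences was not tested. None of the 6 was called in M2, and DESeq2 called 0. In M2 against M1, 1 of the 6 had an unadjusted p under 0.05, beside 4304 of all 18432 genes tested.

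Of 6 genes induced by cAMP and CREB, 4 were called in M4 against M1, 2 in each direction, and 1 was called in M3, beside 20.7% and 13.5% of all genes tested. NR4A1 stood at 1.18 and 1.93 CPM in M1, 5.15 and 8.31 in M3, and 10.8 and 6.06 in M4 (2.11 in M3, adjusted p = 0.0118, and 2.44 in M4, adjusted p = 0.00471). In M3 the NR4A1 call ended without M1 replicate 1 (1.81) or M3 replicate 2 (1.73) and with the doubtful libraries exchanged (2.37). NR4A3 was 2.72 higher in M4 from 15 and 9 counts in M1 (adjusted p = 0.014), a call that ended without M1 replicate 2 (2.41) or M4 replicate 1 (2.30) and with the doubtful libraries exchanged (2.95) or left out (2.41). SIK1 changed by −1.15 (adjusted p = 0.00469), a call that ended without M1 replicate 2 (−0.91) or M4 replicate 2 (−0.94) and with the doubtful libraries exchanged (−0.79) or left out (−0.91). NR4A2 changed by −2.27 (adjusted p = 0.0315), with 8.94 and 38.1 CPM in the M1 libraries. Its call ended without M1 replicate 2 (−0.88), M4 replicate 1 (−2.69) or M4 replicate 2 (−1.92). The same held with the doubtful libraries exchanged (−0.94) or left out (−0.88). The call also ended without M2 replicate 1, M2 replicate 2 or M3 replicate 1, which are outside the comparison, while the value stayed at −2.27. Without M1 replicate 1 it was called at −2.95. None of the 6 was called in M2, and DESeq2 called 0. In M2 against M1, 1 of the 6 had an unadjusted p under 0.05, beside 4304 of all 18432 genes tested. The part of either group in the levels of the clock genes was not tested.

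Over the 4 lists together, 39 of 40 genes were tested, and 1 was called in M2, 6 in M3 and 18 in M4 against M1, beside 3.37%, 13.5% and 20.7% of all genes tested, so the counts in M2 and M3 are near that background. With the doubtful libraries exchanged these counts were 0, 0 and 11, and with both left out they were 0, 5 and 11. In M4 the 7 calls lost under the exchange were HLF, RORB, CIPC, USP2, NR4A2, NR4A3 and SIK1, and the 7 lost without the libraries were these with CIART in place of CIPC.

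**Figure D5:**
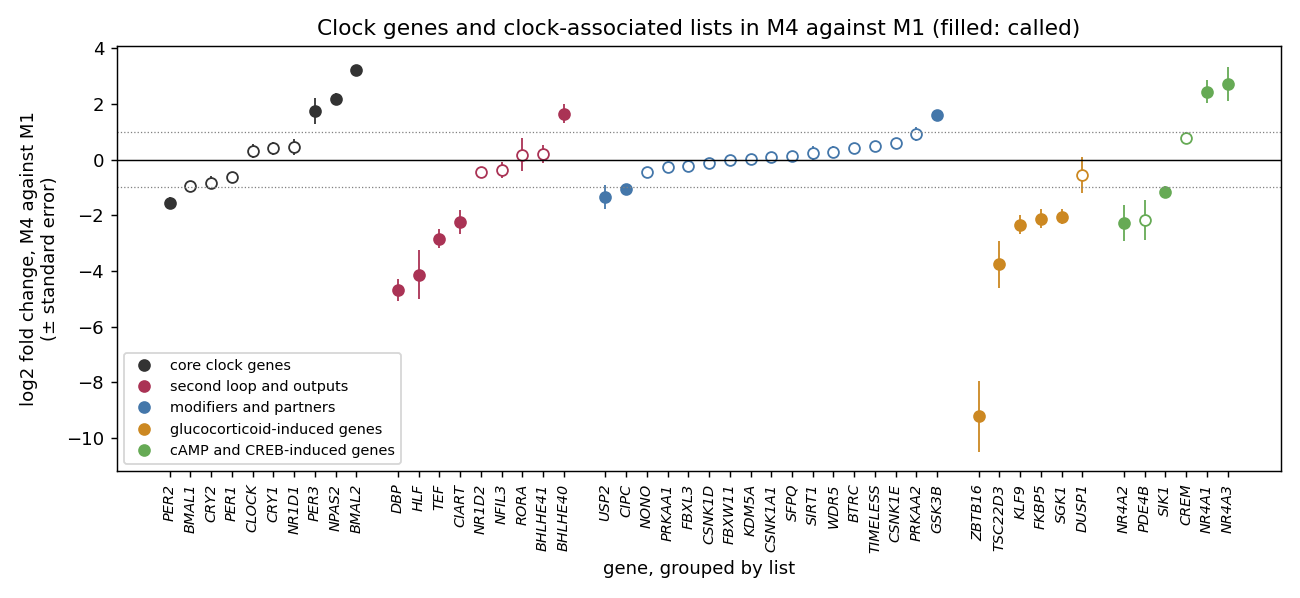
Log2 fold change in M4 against M1 (vertical axis) with its standard error for the 10 clock genes and 38 genes of the 4 lists, grouped by list and filled where the change passed the test and 2-fold. RORB, at 0 counts in M4, is not drawn, and the filled points of the second loop and of the glucocorticoid-induced group lie below 0 except BHLHE40.

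For the 4 clock genes with the widest span between line means, the 3 protein-coding genes with the most similar pattern were found by Pearson's correlation of log2(CPM + 0.5) over the 8 libraries, among 14089 genes. These are descriptions, since all genes share the same libraries, lines and media. For NPAS2, which spanned 3.24 on the log2 scale, they were PITPNC1 (r = 0.995, 9.48 and 9.87 CPM in M1 and 37.3 and 43.5 in M3), PHF24 (r = 0.9946) and ISL2 (r = 0.9922), the last 2 at no more than 0.149 and 1.49 CPM. For BMAL2 they were MYH15 (r = 0.9968), FDPS (r = 0.9956) and INO80C (r = 0.9923). FDPS, an enzyme of isoprenoid and cholesterol synthesis, rose from 174.1 and 134.5 CPM in M1 to 1128.4 and 1212.5 in M4. For PER3 they were TRIB1 (r = 0.979), FNDC3A (r = 0.9754) and MMD (r = 0.9694), and for PER2 they were SDC2 (r = 0.9862), STRADA (r = 0.9846) and POMT1 (r = 0.982).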

How the data were processed

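The members and gene lists were chosen with earlier results of these data known. Per the labels and the methods of the study, the authors trimmed paired-end reads with Trimmomatic, aligned them with STAR to hg19 (GRCh37), checked them with Picard and counted genes of GENCODE release 19 with RSEM. Versions and the use of strand are not given in the sources used here. The deposited values are thus the authors' estimated counts per gene, not normalized, with 12.8% of them not whole, and were rounded here. For their own results the authors used DESeq2 size factors and a 2-fold rule on FPKM in both replicates. Groups came from the sample labels.

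edgeR 4.0.16 in R 4.3.3 was run with TMM scaling, filterByExpr (18432 genes kept), a robust quasi-likelihood F test over all 8 libraries with 1 coefficient per line, and Benjamini-Hochberg adjustment over all genes tested. The script was tested on simulated data. CPM values carry the TMM factors. Gene spans and exon lengths came from GENCODE release 44 mapped to GRCh37, and promoters from RefSeq. A listed gene is not reported here and was left out of its list. The text names all members, the list genes called against M1, overlapping genes with counts, and the 3 genes most like each of the 4 members of widest span. Of the overlapping genes, RN7SKP30 within CLOCK and ENSG00000232034 within NPAS2 share no exonic bases with them and had at most 2 counts per library. A few list genes that were not called (NR1D2, RORA, DUSP1, CSNK1D, CSNK1E and CSNK1A1) were named for their role after their values were seen. The alternatives, 17 refits with other scaling, DESeq2 1.42.0, filters, samples or a replicate block, and 2 other call rules, are described at the end. All lines share the estimate of the spread. A call can therefore end when a library outside the comparison is left out, with its value nearly unchanged. Library totals were 69669970 to 107350344, and they limit the precision through counting error only for genes with few counts, such as HLF, ZBTB16 and RORB.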

Additional observations from a re-analysis of the deposited data

How the results depend on the processing

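The 17 refits and 2 other call rules left most counts of called clock genes within 1.5 times the reported one. In M2 against M1 (1 as reported) the count was 2 without a filter on low counts, where PER3 was added, 0 with M1 replicate 2 and M2 replicate 1 exchanged, 0 with both left out, and 0 to 1 with single libraries left out, all by edgeR. With the exchange it was 1 in M3 against M1 (3 as reported), 2 in M4 against M1 (4), 1 in M3 against M2 (2), 3 in M4 against M2 (5) and 1 in M4 against M3 (3). With both left out it was 1 in M3 against M2. Single libraries left out gave 1 to 2 in M3 against M2, 3 to 5 in M4 against M2 and 1 to 3 in M4 against M3, where the 2-fold rule in both replicates gave 1. Of the 40 associated genes, M2 against M1 (1 called) gave 0 with RLE factors, 2 with DESeq2, 4 without a filter, 0 with only the lines compared, 0 exchanged, 0 left out, 2 with no minimum fold and 0 to 1 with single libraries left out. M3 against M1 (6) gave 11 without a filter, 3 with only the lines compared, 0 exchanged and 11 with no minimum fold. M4 against M1 (18) gave 11 exchanged and 11 left out. The reported call of BMAL2 in M2 turned in sign, to −0.17, with the libraries exchanged. The other changes that turned in sign were not called as reported. In M2 against M1 the exchange gave −0.20 for CLOCK, 0.17 for NPAS2, −0.29 for PER1, 0.14 for PER2, 0.44 for PER3 and 0.064 for CRY2. Leaving both out gave −0.040 for CLOCK and 0.17 for NPAS2 there, and 0.12 for BMAL1 and −0.056 for CLOCK in M3. NPAS2 in M2 was at 0.00091 without a filter and 0.0030 with the replicate block. With single libraries left out, values against M1 of either sign were found for NPAS2 in M2 (−0.14 to 0.15), CLOCK in M2 (−0.093 to 0.44) and in M3 (−0.057 to 0.48), BMAL1 in M3 (−0.33 to 0.12), CRY1 in M3 (−0.15 to 0.55) and NR1D1 in M2 (−0.15 to 0.53). The cause of these shifts was not tested. The replicate number as a block left the counts of called clock genes at 1, 3, 4, 2, 5 and 3 in the 6 comparisons, and in M4 against M1 ended the calls of USP2 (−1.32) and NR4A2 (−2.08). The labels give only the replicate number, not whether libraries of the same number were handled together. Deviations of same-numbered libraries correlated at 0.206 between M3 and M4, and at −0.0511 to 0.0169 between the other pairs of lines, over 18432 genes. Whether same-numbered M3 and M4 libraries share a batch was not tested. Counting error bears on genes with few counts, such as RORB, HLF, ZBTB16 and NR4A3. Groups of 2 libraries allow no outlier test.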
